A study of Homo sapiens with 47 samples.

Results

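In Ishikawa cells, a human endometrial adenocarcinoma line, 3711 of 41675 merged H3K27ac intervals held a peak in at least 6 of the 10 dCas9-VP16(10x) libraries and in at most 1 of the 10 dCas9-p300(core) libraries. These VP16-recurrent sites were chosen by the H3K27ac peak calls themselves, after peaks of the 20 libraries that shared at least 1 bp were merged and intervals within 5 kb of the 19 targeted loci were set aside (1 interval). The share of all intervals that met the rule was 8.90%, and the mirrored rule, with the constructs exchanged, was met by 5 intervals (0.0120%). Because the rule used the contrast between the constructs in H3K27ac, every H3K27ac value below, the number of peaks per library included, is a description and carries no test.

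The cells were kept without hormone for at least 5 days, transfected with plasmids for 1 of the 2 dCas9 fusions and for pooled guide RNAs (gRNAs), and selected for both plasmids, so each library is a pool of transiently transfected cells and no untransfected library was analysed here. dCas9-VP16(10x) carries 10 copies of the viral VP16 activation domain, and dCas9-p300(core) carries the catalytic core of the acetyltransferase p300. For each construct there were 2 H3K27ac libraries with each of 5 gRNA pools, namely Pool 1, Pool 2 and Pool 3 at estrogen receptor binding sites (ERBSs) near MMP17, CISH, FHL2 and HES2, the Adjacent pool at regions beside ERBSs, and the control pool at the IL1RN promoter. The title of the Adjacent replicate 1 library of dCas9-VP16(10x) also holds il1rn, and whether that library received IL1RN gRNAs too is not stated. In addition, 20 RNAPII libraries of the same design and 7 HA libraries, made with an antibody to the tag of dCas9, were read at the same intervals.

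H3K27ac marks nucleosomes at active promoters and enhancers and is deposited by p300 and its paralog CBP. VP16 is a potent acidic activation domain that contacts Mediator and general transcription factors and also draws in histone acetyltransferases. By their labels the gRNA pools were the same for both constructs, apart from the title with il1rn given above, and none was directed to the sites described here.

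CG pairs were fewer around the summits of these sites than at other sites that recurred with VP16, so 200 bases around the median summit are printed for 4 VP16-recurrent sites and for 1 promoter that was also found with p300. They were read from the plus strand of hg19, and capitals mark CG pairs, the dinucleotide concentrated in CpG islands. The sites nearest to TMEM121 and PXDN are the leading distal sites, ZNF630 and ZBTB3 the leading promoters, and BCOR the promoter for comparison.
TMEM121, chr14:106365757-106365956: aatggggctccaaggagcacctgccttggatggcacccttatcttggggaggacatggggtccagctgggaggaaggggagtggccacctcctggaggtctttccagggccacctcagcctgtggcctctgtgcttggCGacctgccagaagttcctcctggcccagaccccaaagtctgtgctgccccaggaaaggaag
PXDN, chr2:1617853-1618052: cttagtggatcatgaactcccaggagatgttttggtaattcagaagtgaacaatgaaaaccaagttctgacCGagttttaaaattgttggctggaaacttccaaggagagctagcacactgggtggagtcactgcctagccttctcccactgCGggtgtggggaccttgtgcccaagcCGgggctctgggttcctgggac
ZNF630, chrX:47930792-47930991: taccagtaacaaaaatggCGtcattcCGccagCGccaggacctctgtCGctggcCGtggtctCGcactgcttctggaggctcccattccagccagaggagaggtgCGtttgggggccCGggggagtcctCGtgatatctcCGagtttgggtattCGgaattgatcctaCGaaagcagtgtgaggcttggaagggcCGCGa
ZBTB3, chr11:62521428-62521627: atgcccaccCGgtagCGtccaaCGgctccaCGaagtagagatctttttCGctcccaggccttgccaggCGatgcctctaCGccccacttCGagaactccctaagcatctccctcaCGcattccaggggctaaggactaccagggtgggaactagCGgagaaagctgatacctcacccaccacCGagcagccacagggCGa
BCOR, chrX:40035494-40035693: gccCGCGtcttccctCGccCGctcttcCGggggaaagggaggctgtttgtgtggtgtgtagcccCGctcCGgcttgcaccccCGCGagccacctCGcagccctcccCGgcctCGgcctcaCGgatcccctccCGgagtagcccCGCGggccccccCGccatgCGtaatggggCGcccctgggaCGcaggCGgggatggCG
The distal stretches held 1 CG pair at TMEM121 and 3 at PXDN. The promoters of ZNF630 and ZBTB3 held 14 and 12. The BCOR promoter, which had a peak in 10 dCas9-VP16(10x) and 5 dCas9-p300(core) libraries, held 22 at a GC content of 75%.

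Recurrence among the dCas9-VP16(10x) libraries was mostly near the threshold. Of the 3711 sites, 1554 were found in 6 libraries, 1234 in 7, 662 in 8, 215 in 9 and 46 in all 10. A dCas9-p300(core) peak was missing at 2679 sites and present in 1 library at 1032, and 561 of these had it in Adjacent replicate 1. Many intervals lay next to the limits of the rule: 217 sites lay just inside with 6 VP16 and 1 p300 library, 1259 intervals had 5 VP16 libraries with at most 1 p300 library, and 805 had 6 or more VP16 libraries with 2 p300 libraries. The other sites found in at least 6 dCas9-VP16(10x) libraries numbered 11348, of which 8103 were found in 2 to 5 and 3245 in 6 or more p300 libraries.

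**Figure D1:**
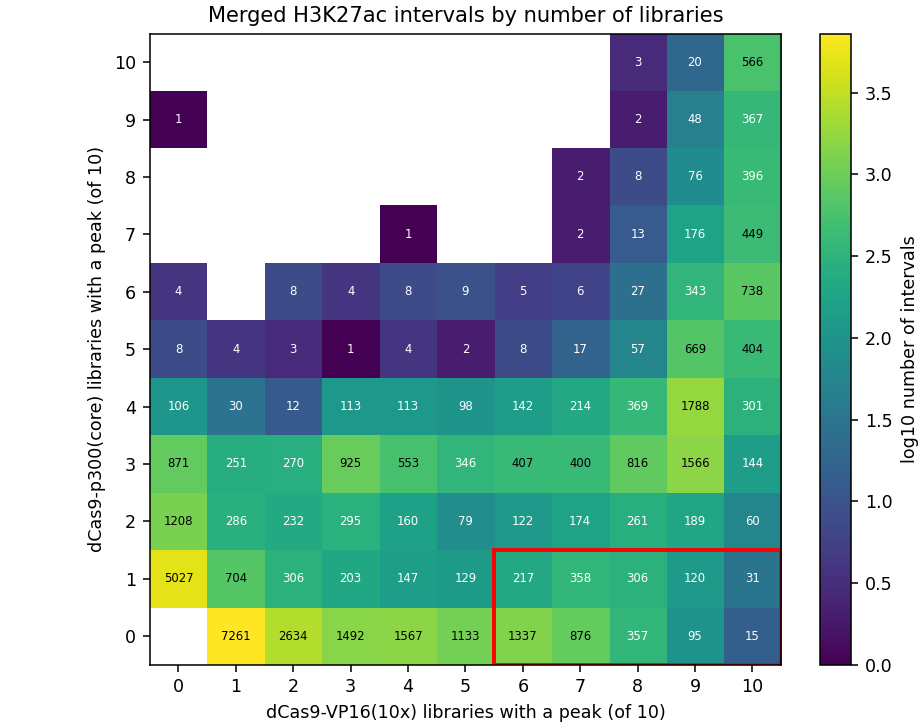
Number of merged H3K27ac intervals (colour on a log10 scale, count printed in each cell) by the number of dCas9-VP16(10x) libraries (x axis, of 10) and dCas9-p300(core) libraries (y axis, of 10) with a peak. The red frame holds the VP16-recurrent sites together with the 1 interval near a targeted locus, and 1554 of the sites lie in its first column.

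Peak number moved with the construct. The H3K27ac libraries held 5322 to 32052 peaks (median 25025) with dCas9-VP16(10x) and 1805 to 24280 (median 6143) with dCas9-p300(core). The geometric means were 20823 and 7006, a 2.97-fold difference (difference of mean log10 peak number 0.473, SD 0.225 and 0.370, n = 10 each). The ranges overlapped, and read depth was not given in the peak lists and is unknown, so the part of depth in these numbers was not tested. Whether acetylation itself differed was not tested, and fewer acetylated cells and less acetylation per cell cannot be told apart in such pooled chromatin.

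Peak number also moved with the batch. The names of the peaks carry a numeric identifier in 11 H3K27ac libraries and none in the other 9, whose titles all hold the word stringent. It is called a run identifier here, and libraries without it were grouped as 1 batch. The sources used here explain neither the identifier nor the word. Without an identifier, 5 dCas9-VP16(10x) libraries held 24890 to 32052 peaks and 4 dCas9-p300(core) libraries 1805 to 4346, and the 2 ranges lay far apart (8.75-fold in geometric mean). With the identifier, 5 VP16 libraries held 5322 to 26862 and 6 p300 libraries 5599 to 24280, ranges that overlapped almost completely (1.32-fold). The ranges of peak number thus lay apart within 1 batch and overlapped within the other, and whether the batches differed in this was not tested.

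The sites followed the same division. In the 5 dCas9-VP16(10x) libraries without an identifier, 3437 to 3710 of the sites had a peak (92.6% or more), and 3184 sites (85.8%) had one in all 5. In the 5 VP16 libraries with the identifier, the share was 2.96% in Pool 3 replicate 1, 9.97% in IL1RN replicate 1, 46.1% in Pool 1 replicate 1, 70.6% in Pool 2 replicate 1 and 77.6% in Adjacent replicate 2. With a minimum of 6 libraries and 5 in the other batch, the rule itself requires at least 1 of these 5, and 1118 sites had a peak in 1, 1551 in 2, 750 in 3, 242 in 4 and 50 in all 5.

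The number of sites per library is given beside peak number as a description only, because the rule allowed a p300 peak in at most 1 library per site and so fixed the direction between the constructs. The IL1RN replicate 1 library of dCas9-VP16(10x) had 16463 peaks and 370 of the sites, whereas Adjacent replicate 2 of dCas9-p300(core) had 16457 peaks and 0 of the sites. The p300 library with the most peaks, Adjacent replicate 1, had 24280 peaks and 561 of the sites (15.1%), and the VP16 library nearest to it in number, Pool 3 replicate 2, had 24890 peaks and 3545 (95.5%). At the low end, Pool 3 replicate 1 of dCas9-VP16(10x) had 5322 peaks and 110 sites and Pool 3 replicate 1 of dCas9-p300(core) had 5599 peaks and 44. The plot of sites against peak number shows that libraries with 18664 peaks or fewer held at most 370 of the sites with either construct.

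**Figure D2:**
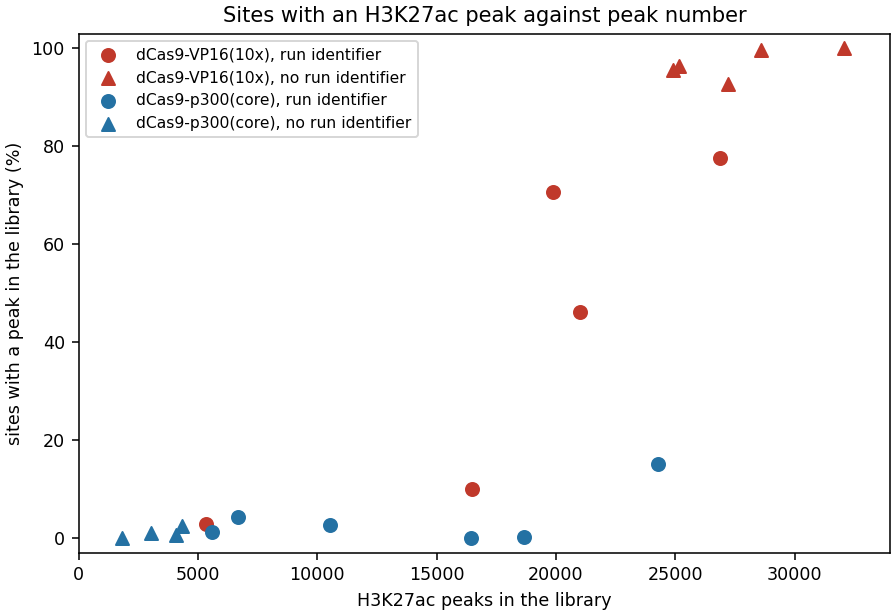
Share of the 3711 VP16-recurrent sites with an H3K27ac peak (y axis, %) against the number of peaks in the library (x axis), 1 point per library, red for dCas9-VP16(10x), blue for dCas9-p300(core), circles with and triangles without a run identifier. The 5 VP16 libraries without an identifier lie at 92.6% or more, and the p300 libraries reach at most 15.1%.

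Taking the same number of peaks from each library removed most of the set. With the 1805 most significant peaks of each library, 78 intervals met the rule and 2 of the 3711 sites overlapped them. With at most 6143 peaks per library, 389 intervals met it, overlapping 115 of the sites. By significance, the median rank of the site peaks lay at 41.1% to 89.7% of the VP16 lists. The cut at 1805 thus removes most site peaks from every VP16 list in any case. What equal peak number did to the contrast between the constructs was not tested. In the 5 VP16 libraries without an identifier, 409 to 744 of the sites (11.02% to 20.05%) lay among the top 6143 peaks, which made up 19.2% to 24.7% of the peaks of these libraries. Of these libraries, only Pool 2 replicate 2 had the sites among the top peaks about as often as peaks in general (20.05% and 19.2%). In the others the share of sites was below that of peaks, as in Pool 1 replicate 2 (11.02% and 21.5%). Median fold enrichment of the site peaks was above that of all peaks in Pool 2 replicate 2 (13.7 and 12.3). It was about equal in Adjacent replicate 1 (10.74 and 10.72). In every other dCas9-VP16(10x) library it was lower, for example 9.71 against 10.76 in IL1RN replicate 2 and 8.62 against 27.4 in IL1RN replicate 1.

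Applied within batches, at least 3 of 5 VP16 libraries and no p300 library of the batch, the rule was met by 14521 intervals without an identifier and by 713 with it. Of the 3711 sites, 3550 met it in the first batch, 585 in the second, 517 in both and 93 in neither. The 517 sites were 20.5% promoters with a median GC content of 52.3%, against 33.1% and 54.7% for the 3033 sites that met it only without an identifier. Without Pool 1 replicate 2 of dCas9-VP16(10x), whose construct is in doubt because its peak names carry p in place of v, 2172 sites were left under the same library numbers.

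The control pool was among the libraries that chose the sites. The pair of dCas9-VP16(10x) libraries with IL1RN gRNAs both held a peak at 336 of the sites (9.05%), 1 of them did at 3275 (88.3%), and neither at 100. IL1RN replicate 2 had a peak at 96.4% of the sites and IL1RN replicate 1 at 9.97%, and these 2 libraries came from different batches.

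VP16-recurrent sites were less often promoters and poorer in GC than other sites recurrent with VP16. A protein-coding transcription start site (TSS) lay within 1 kb of the summit at 1172 sites (31.6%), against 77.1% of the sites in 2 to 5 p300 libraries, 70.5% of those in 6 or more and 38.2% of all merged intervals. The sets next to the limits of the rule lay on either side, with 17.2% promoters and a GC content of 48.7% in 5 VP16 libraries and with 51.8% and 60.7% in 2 p300 libraries. Away from promoters, 99 of the sites were exonic, 1109 intronic and 1331 intergenic, and the median distance to a TSS was 11172 bp against 193 bp for sites in 2 to 5 p300 libraries. The median GC content of 300 bp around the summit was 54.3%, against 70% in 2 to 5 p300 libraries, 66.7% in 6 or more and 63.0% over all intervals. The same windows held a median of 6 CG pairs, against 29, 25 and 13 in these 3 sets.

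Outside promoters, the difference in GC content depended on the set compared. VP16-recurrent promoters had a median GC content of 59.0%, and promoters in 2 to 5 p300 libraries 71.0%. Promoters in 6 or more p300 libraries had 69.7%. Sites farther than 1 kb from a TSS had 51.3%, against 61.7% in 2 to 5 but 52.7% in 6 or more p300 libraries. Among all sites recurrent with VP16, those with at most 1 p300 library made up 55.3% at a GC content under 45%, 57.6% between 55% and 60%, 38.1% between 60% and 65%, 7.50% between 65% and 70% and 0.131% (7 of 5324) at 70% or more.

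The GC content of the peaks moved with the library. GC content was read here around the median summit of the merged interval that holds each peak. The 3 dCas9-p300(core) libraries with the most peaks were Adjacent replicate 1, Adjacent replicate 2 and IL1RN replicate 1. In these, 4.69%, 7.13% and 6.83% of the peaks lay in intervals with a GC content under 55%. The 10 dCas9-VP16(10x) libraries had 14.8% to 37.7%. The other 7 p300 libraries, with 1805 to 10532 peaks, had 25.2% to 53.7%. The p300 libraries that were rich in peaks were thus poor in peaks at intervals of low GC content. The part of this in the choice of the sites was not tested.

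**Figure D3:**
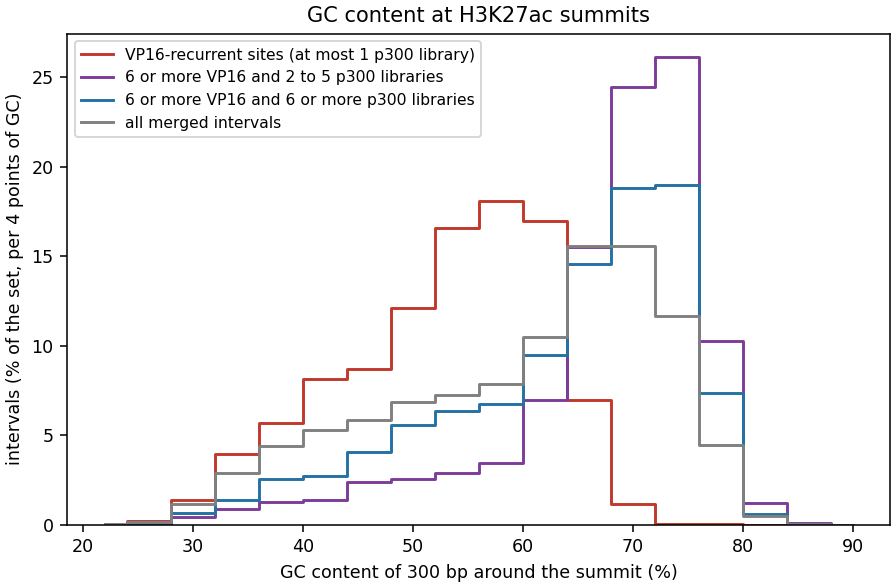
Distribution of GC content in 300 bp around the summit (x axis, %) as the share of each set per 4 points of GC (y axis, %), for VP16-recurrent sites (red), sites in at least 6 VP16 and 2 to 5 p300 libraries (purple), sites in at least 6 of each (blue) and all merged intervals (grey). The red curve lies to the left of the others, with medians of 54.3%, 70%, 66.7% and 63.0%.

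Short motifs differed along with base composition. In 300 bp around the summit, on either strand, the GC box GGGCGG was found at 19.4% of the sites and at 37.9% of all intervals. The AP-1 motif TGANTCA was found at 8.46% against 6.6%, the TEAD motif GGAATG at 17.9% against 13.2%, the forkhead motif TGTTTAC at 3.77% against 2.28% and CCAAT at 29.7% against 20.7%. The E-box CACGTG was found at 4.61% against 6.26%, and the CRE half-site TGACGT at 4.10% against 3.99%, so the 3 motifs that contain CG did not all move the same way. Among distal sites alone, AP-1 was found at 10.2% of VP16-recurrent sites, 7.6% of sites in 2 to 5 p300 libraries and 12% of those in 6 or more, so its share did not follow the number of p300 libraries. The estrogen response element, read as GGTCA and TGACC 3 bases apart, was found at none of the 3711 sites and at 0.0456% of all intervals.

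Mean fold enrichment over the VP16 libraries was lower at these sites than at other sites recurrent with VP16. The median width of the merged intervals, which grows with the number of peaks merged, was 1321 bp, against 1540 bp in 2 to 5 p300 libraries, 2394 bp in 6 or more and 694 bp over all intervals, of which 12288 came from 1 library. The mean fold enrichment over the 10 dCas9-VP16(10x) libraries, counting 0 where there was no peak, had a median of 8.34, against 18 and 30.6 in the sets with 2 to 5 and with 6 or more p300 libraries. Each missing peak lowers this mean, so it does not separate the strength of the peaks from the number of libraries, which the rule used. The sites just outside the rule, with 5 VP16 libraries, had a median of 4.93.

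The sites were spread over the genome. They were nearest to 2654 protein-coding genes, 3 of which had 10 or more, namely AOPEP, an aminopeptidase gene, with 12 of its 54 intervals (22.2%), KIAA1217 with 11 of 41 (26.8%) and ROBO1, an axon guidance receptor gene, with 10 of 71 (14.1%). Among the 20 genes with the most sites, the share was highest at MYEOV, PDHA2 and PLB1, with 7 of 14 intervals each (50%), and at TMEM121, with 9 of 20 (45%). The median distance from a site to the next was 63666 bp, and 10.0% lay within 1 kb of another. For the 2679 sites without any p300 peak, the nearest interval with one lay at a median of 16958 bp. Chromosome 6 had the highest share of its intervals among the sites (242 of 1890, 12.8%) and chromosome 16 the lowest of the autosomes (117 of 2012, 5.82%).

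The 12 leading sites, those found in the most dCas9-VP16(10x) libraries with the highest mean fold enrichment, had a peak in all 10, and 9 of the 12 were distal. The strongest, at chr14:106363029-106368860, lay in the immunoglobulin heavy chain locus over the noncoding gene FAM30A and 4 diversity segments, with TMEM121 as the nearest protein-coding gene 372937 bp away. Its fold enrichment was 12 at the lowest, 30.01 at the median and 44.4 at the highest over the 10 VP16 libraries, and none of the 10 p300 libraries had a peak. The immunoglobulin segments are rearranged in B cells, and the immune marker genes PTPRC, CD3E and LYZ had no peak in any of the 20 libraries.

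At chr2:1615458-1620519, 78389 bp from a start site of PXDN, a peroxidase that crosslinks basement membrane collagen, fold enrichment was 9.84 at the lowest, 27.6 at the median and 44.4 at the highest with VP16. The 1 p300 peak there, in Pool 1 replicate 2, reached 7.07, below the lowest VP16 value. At chr16:31149456-31150961, an exonic site in PRSS36 that is nearest to a start of PRSS8, the gene of the epithelial protease prostasin, the values were 9.25, 21.2 and 58.1, with 1 p300 peak of 7.23. The groups did not overlap at these sites, as the rule nearly fixes.

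The intronic site of ATP1A4, a sodium pump subunit of sperm, at chr1:160136877-160140562 had 11.1, 24.8 and 29.3 with VP16 and no p300 peak. The site near MAL, which codes for a proteolipid of epithelial apical transport, at chr2:95684667-95690082 had 13.7, 21.2 and 36.5 and no p300 peak. The site in RHEX at chr1:206277833-206282562 had 9.5, 19.1 and 37.3 and no p300 peak. In each of these sites, the lowest VP16 value came from IL1RN replicate 1, Pool 1 replicate 1 or Pool 3 replicate 1, which are 3 of the 5 libraries with an identifier.

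The remaining leading distal sites were in AP3D1, a subunit of the AP-3 adaptor (chr19:2126803-2128630, median 23), near MYEOV (chr11:69040161-69047129, median 22.0) and near ACAA2, a thiolase of fatty acid oxidation (chr18:47229290-47231639, median 19.5). Each had 1 p300 peak, of 5.39, 7.10 and 8.69. The leading promoters were those of the zinc finger genes ZNF630 (chrX:47930263-47931394, median 17.5), ZBTB3 (chr11:62520787-62522230, median 20.3) and ZNF608 (chr5:124081574-124085719, median 14.1). Their single p300 peaks were 8.89, 5.37 and 7.47.

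**Figure D4:**
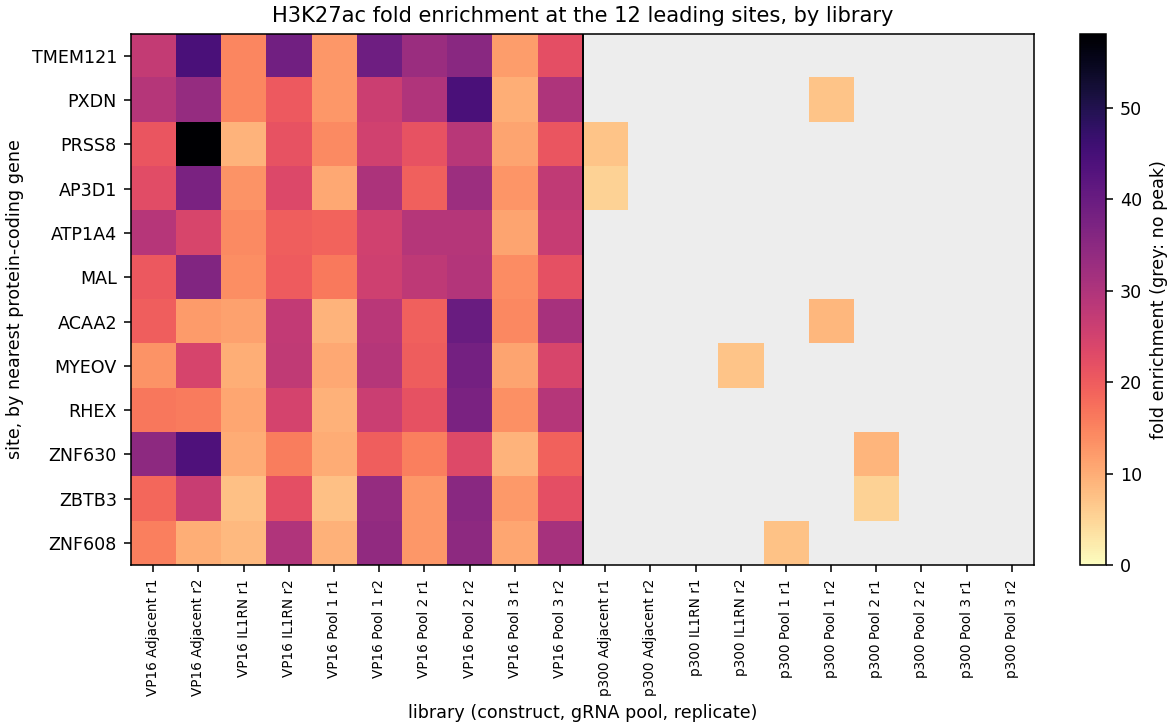
H3K27ac fold enrichment over background (colour) at the 12 leading sites (rows, by nearest protein-coding gene) in each of the 20 libraries (columns, r1 and r2 for replicates). Grey marks no peak, and the 10 dCas9-VP16(10x) libraries at the left are filled in every row while a row has at most 1 peak among the dCas9-p300(core) libraries.

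The promoters found in all 10 VP16 libraries also included genes of basic cell functions. AURKA, a mitotic kinase (chr20:54966102-54968571), had fold enrichment of 8.81, 16.7 and 45.1 at the lowest, median and highest, but its single p300 peak reached 21.3, above the VP16 median. SULT1C2, a sulfotransferase (chr2:108903780-108906560), had 5.05, 15.0 and 34.8, with a p300 peak of 13.0. At these 2 promoters, the p300 value lay within the range of the VP16 values.

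Further promoters in all 10 were those of MID1, a ubiquitin ligase (median 15.8), PAFAH2, a phospholipase (16.6), DAXX, a histone H3.3 chaperone (14.6), GTF2H4, a subunit of the general factor TFIIH (12.1), ZNF649 (13.1), PRMT5, an arginine methyltransferase (12.7), and CYCS, cytochrome c (13.0), all values being median fold enrichment over the 10 VP16 libraries. MID1, PAFAH2 and ZNF649 had no p300 peak. CYCS had 1, of 9.53, above its lowest VP16 value of 6.66. The single p300 peaks of PRMT5 and GTF2H4, 6.35 and 9.80, also lay above the lowest VP16 values there, 5.66 and 9.14. At DAXX the p300 peak of 8.04 lay below the lowest VP16 value of 8.43.

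Gene lists of the tissue and of the activators held few of the sites. Of 18 estrogen-responsive genes, 4 were nearest to 8 sites among 104 intervals (7.69%): MYC with 4, STC2 with 2, and GREB1 and XBP1 with 1 each. Of 15 genes of the endometrial epithelial lineage, 5 had 11 sites among 87 intervals (12.6%), 5 of them at PAX8, a Müllerian lineage factor, and 2 at ESR1, the estrogen receptor. The 4 genes whose ERBSs were targeted, CISH, FHL2, MMP17 and HES2, had none among 27 intervals. Of these intervals, 21 lay within 5 kb of a targeted locus, and none of the 21 met the library numbers of the rule. These shares lie on both sides of the 8.90% over all intervals.

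AP-1 and immediate early genes had 7 sites among 75 intervals (9.33%), with 2 each at FOS, JUN and IER3 and 1 at ATF3. Interferon-stimulated genes had 4 among 24 (16.7%), at IFIT2, IFIT3, MX1 and IRF9. Genes of known VP16 partners had 2 among 54 (3.70%), at MED15, a Mediator subunit, and TBP. None of the list genes held more than 5 sites. The labelled cell type was in keeping with its markers, since the 8 epithelial and endometrial genes had a promoter peak in 11 to 20 libraries, whereas 4 of 6 stromal genes, the 3 immune genes named above and all 3 endothelial genes had none, COL1A1 and COL1A2 having 12 and 1.

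RNAPII was measured in separate libraries, which the rule did not use. An RNAPII peak in at least 1 of 20 libraries overlapped 2688 of the 3711 sites (72.4%), against 97.1% of the sites in 2 to 5 p300 libraries, 98.2% of those in 6 or more and 67.4% of all intervals. Of VP16-recurrent promoters 95.5% had one, and of the sites farther than 1 kb from a TSS 61.8%. Per library, 26.7% to 60.1% of the sites had an RNAPII peak with dCas9-VP16(10x) (median 49.9%) and 21.6% to 51.7% with dCas9-p300(core) (median 29.4%). The ranges overlapped, and the 2 constructs were in the reverse order over all intervals, with medians of 40.7% and 47.9%.

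Each interval was tested for a difference in the number of libraries with an RNAPII peak (Fisher's exact test, two-sided, 10 against 10 libraries, Benjamini-Hochberg adjusted over 28107 intervals). Over all of them, 0.601% were called higher with VP16 and 1.65% higher with p300 at an adjusted p under 0.05. Of the VP16-recurrent sites, 45 of the 2688 tested were called higher with VP16 (1.67%) and 0 higher with p300. The count of 45 fell to 9 with the replicate block, to 9 with no filter and to 8 at −log10 q of at least 20, and 8 of the 20 single-library omissions raised it by over 1.5 times, to between 81 and 99. At an unadjusted p under 0.05, 332 sites were higher with VP16 (12.4%) and 7 with p300 (0.260%), against 1075 (3.82%) and 3239 (11.5%) of all 28107 intervals. Most sites were thus not called in either direction.

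The called sites were poor in GC, as were called intervals in general. The 45 had a median GC content of 47.0%, the 169 intervals called higher with VP16 over the genome 45%, and the 463 called higher with p300 71.7%. At a GC content under 50%, 30 of 629 VP16-recurrent sites tested (4.77%) and 94 of 2144 other intervals (4.38%) were called higher with VP16. Between 50% and 60%, the shares were 14 of 1212 (1.16%) and 28 of 3097 (0.904%). Between 60% and 70%, they were 1 of 840 (0.119%) and 2 of 10818 (0.0185%). The median difference in the number of libraries, VP16 minus p300, was 4 for the sites and 2 for the other intervals in the lowest of these ranges, 1 and 0 in the next, and 0 and −1 in the highest.

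The RNAPII libraries also differed in base composition, read here around the summit of each RNAPII peak. Between 2.28% and 27.9% of RNAPII peaks (median 6.91%) had a GC content under 55% with dCas9-p300(core), against 13.3% to 33.9% (median 26.2%) with dCas9-VP16(10x). All 10 p300 libraries carry the run identifier of the H3K27ac libraries, while 7 VP16 libraries carry another and 3 carry none. The titles of all 10 VP16 RNAPII libraries hold the word stringent, and no title of a p300 RNAPII library does. What that word stands for is not explained, and its part cannot be told apart from the construct either. Construct and batch of RNAPII cannot be told apart, no fit with batch as a term was possible, and the part of GC content in the calls was not tested.

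**Figure D5:**
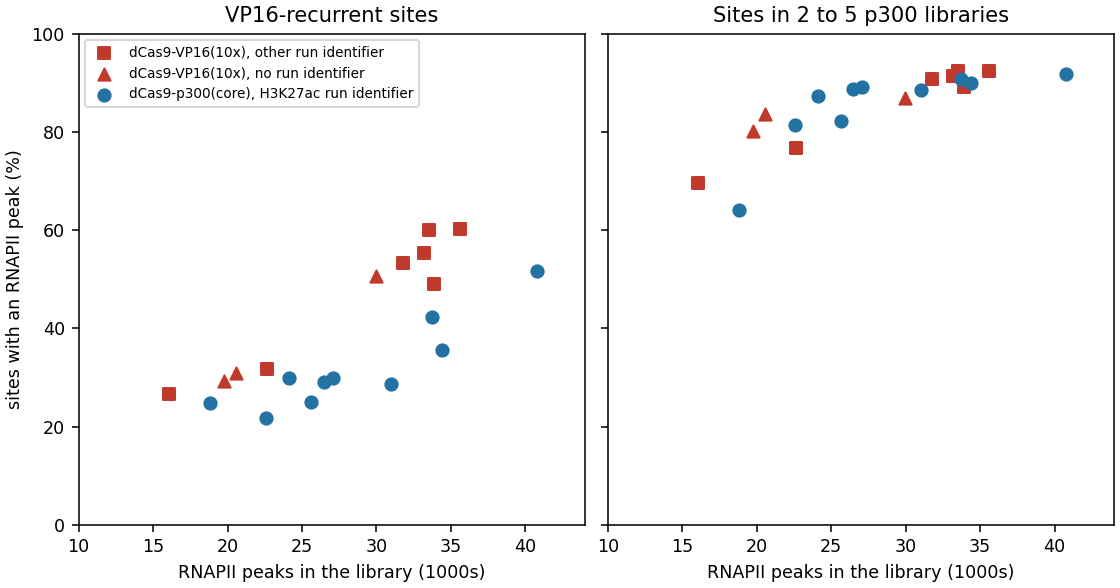
Share of sites with an RNAPII peak (y axis, %) against the number of RNAPII peaks in the library (x axis, in units of 1000 peaks), 1 point per library, for VP16-recurrent sites (left) and sites in 2 to 5 p300 libraries (right). Red marks dCas9-VP16(10x), blue dCas9-p300(core) and the symbol the run identifier. At the left the VP16 libraries reach 60.1% and the p300 libraries 51.7%, and at the right both reach about 92%.

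The clearest differences in RNAPII were at 3 sites with a peak in all 10 dCas9-VP16(10x) and none of the dCas9-p300(core) libraries (Fisher's exact test, p = 1.08e-05, adjusted p = 0.0117). They lay upstream of FBN3, a fibrillin gene (chr19:8225533-8226785), near ZNF311 (chr6:28952376-28953377) and in an intron of ELOVL6, a fatty acid elongase (chr4:111114431-111115997). RNAPII fold enrichment with VP16 ranged from 5.13 to 14.5 at FBN3, 7.75 to 15.9 at ZNF311 and 6.72 to 16.3 at ELOVL6. H3K27ac was found at these sites in 8, 8 and 6 VP16 libraries and in 1, 0 and 0 p300 libraries.

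At the promoters of GPX8, a glutathione peroxidase of the endoplasmic reticulum, FRRS1, a ferric reductase, and COX7B, a subunit of cytochrome c oxidase, RNAPII was found in 9 VP16 and 0 p300 libraries. At the promoter of SMPDL3B, a phosphodiesterase, and in an intron of SIPA1L3 it was found in 10 and 1 (Fisher's exact test, adjusted p = 0.0162 for each of these 5 sites). At RNAPII −log10 q of at least 20, the calls at GPX8 (adjusted p = 0.122), FRRS1 (0.0828) and SMPDL3B (0.0527) were lost by the same exact test, and with equal peak numbers those at GPX8 (0.253) and FRRS1 (0.141). The promoter of GPX8 had a GC content of 34.0% and that of SMPDL3B 55%. Of the other sites called, 21 had RNAPII in 8 VP16 and 0 p300 libraries, 10 in 9 and 1, and 5 in 10 and 2, and 1 further site in 10 and 1.

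Among the leading H3K27ac sites, that of ATP1A4 was called, with RNAPII in 8 VP16 and 0 p300 libraries (Fisher's exact test, adjusted p = 0.0402). It was not called by the exact test stratified by replicate number (replicate block, adjusted p = 0.0537), with no filter (0.0597), at −log10 q of at least 20 (0.122) or with equal peak numbers (0.0745). The MYEOV site had RNAPII in 8 and 2 libraries (adjusted p = 0.204), TMEM121 in 7 and 2 (0.374) and SULT1C2 in 7 and 0 (0.0768), all by the same exact test. The ACAA2 site had no RNAPII peak in any library, and ZBTB3 had one in all 20.

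The 8 sites named for the most RNAPII libraries had a peak in all 20, which the choice fixes for both constructs. They were the promoters of H2AX and H4C5, histone genes, RPS12, a ribosomal protein gene, CYCS, GSTK1, a mitochondrial glutathione transferase gene, NEU1, the lysosomal sialidase gene, RARS1, the arginyl-tRNA synthetase gene, and TBC1D10A. The H2AX interval (chr11:118966456-118967053) overlaps DPAGT1, and its summit lies 466 bp upstream of the H2AX start site. RNAPII fold enrichment there was 21.3 to 40.4 with VP16 and 35.4 to 58.8 with p300, ranges that overlapped. H3K27ac was found there in 6 VP16 and 0 p300 libraries. At RPS12 (chr6:133134784-133136701), H3K27ac was found in 7 and 1. GSTK1, NEU1 and CYCS also had H3K27ac in 1 p300 library, and the other 4 in none. The single p300 peaks reached 20.5 at GSTK1 and 11.8 at NEU1, above the VP16 medians of 7.86 and 6.42. When the RNAPII summit had to lie within 500 bp, TBC1D10A was called higher with VP16 (Fisher's exact test, adjusted p = 0.0203). RNAPII fold enrichment there reached 21.0 with VP16 and 64.8 with p300.

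HA peaks, from the antibody to the tag of dCas9, were no more frequent at the sites than elsewhere in 6 of the 7 HA libraries. All 7 came from cells with a dCas9 fusion, so the part of background in these peaks was not tested. In the 5 dCas9-VP16(10x) HA libraries, 10.3% to 50.3% of the sites had an HA peak, against 10.4% to 46.8% of all intervals and 24.8% to 90.3% of the sites in 2 to 5 p300 libraries. The exception was ERBS replicate 2, with 50.3% of the sites and 46.8% of all intervals. The pair of dCas9-p300(core) HA libraries held 154 and 141 peaks and none at the sites, so HA cannot be compared between the constructs here.

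An HA peak in at least 2 libraries was found at 1433 sites and in none at 1799 (48.5%, against 51.0% of all intervals). It was found in exactly 2 libraries at 19.7% of the sites against 20.6% of all intervals. The shares were 9.11% against 8.24% for 3 libraries and 4.50% against 5.61% for 4. Those in 5 libraries numbered 197 (5.31%, against 6.90%). Those with the highest mean H3K27ac enrichment included the PRSS8 site, the promoters of ZBTB3, OPA3, a mitochondrial membrane protein gene, ZNF444, ATF7 and SPATA24, and an intergenic site 8129 bp from HSPB1, the small heat shock protein gene. RNAPII at these sites was found in 7 to 10 VP16 and 3 to 10 p300 libraries, and none was called.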

How the data were processed

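Peak lists of 20 H3K27ac, 20 RNAPII and 7 HA ChIP-seq libraries of Ishikawa cells were used. The authors aligned reads to hg19 with bowtie and removed duplicates. Their processing notes name Bowtie 1.1.2, SAMtools, bedtools and MACS2 2.1.0.20140616. Peaks were deposited per library with fold enrichment, a ratio over background, and with −log10 p and −log10 q values. The control library and threshold are not given in the sources used here. The lowest −log10 p in the H3K27ac lists was 10.0. In the deposited table of loci only coordinates were used; its other columns hold normalized signal.

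Peaks were merged at 1 bp of overlap, and groups were taken from sample titles. Libraries labelled as replicates are not stated to be separate cultures, so p-values may measure technical spread. Summits were the median over peaks. Annotation was GENCODE v44lift37, and the genome was GRCh37, which holds all 72 gRNAs searched inside the targeted regions. Fisher's exact test was run with scipy 1.17.1 in Python 3.11.15, with Benjamini-Hochberg adjustment over intervals with an RNAPII peak in at least 1 library. It was tested on simulated data. A permutation test of H3K27ac peak number was run but is not reported, since the rule used the same contrast. A value of 0 was used where a library had no peak.

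Sites were named as the 12 in the most VP16 libraries, the 8 with the most RNAPII libraries, the 8 with the lowest p in the RNAPII test, the 12 leading promoters and the 8 in the most HA libraries, ties going to the higher mean fold enrichment. A few items under these rules are not reported here. A site within 1 kb of a protein-coding TSS was called a promoter. Sites and gene lists were chosen with earlier results of these data known. Batches are the numeric identifiers in peak names, called run identifiers here, whose meaning the sources used here do not state. No 2 lists of an antibody shared more than 3.55% of summits, so none was treated as a copy. Alternatives were other merging and overlap, equal peak numbers, stricter thresholds, other library numbers, single batches, the replicate number as a block and leaving out each library.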

Additional observations from a re-analysis of the deposited data

Results flagged for a closer look

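Of 9 groups of libraries examined for a value far from the others, 1 held such a value, and chance alone would give about 1 in 20. Among the 10 dCas9-p300(core) libraries, Adjacent replicate 1 had an H3K27ac peak at 561 of the 3711 sites, and the next highest library had 159. The gap was 0.717 of the range of the group, above the 95% critical value of Dixon's ratio for 10 values. These are the H3K27ac calls that the rule itself used, so the ratio describes the libraries and supports nothing about the sites. This library also had the most peaks of the group, 24280, and the rule allows each site at most 1 p300 library. Its part in the choice of the sites was measured by leaving it out, which gave 4199 sites.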

How the results depend on the processing

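The number of sites stayed within 1.5 times 3711 when peaks within 500 bp were merged, with a summit within 500 bp, at −log10 q of at least 20, at 50 kb from targeted loci and without the 4 p300 libraries that carry no identifier, the last added after the data were seen. It moved to 78 with the 1805 strongest peaks, 389 with at most 6143, 466 with at least 8 VP16 and no p300 library, 5853 with at least 5 and at most 2, 713 in the batch with the identifier, 14521 in the other, and 1317 with the replicate number as a block, that is at least 3 VP16 libraries of each replicate number. Leaving out 1 library gave 2158 to 4199, and each of the 5 VP16 libraries without an identifier moved it by over 1.5 times (2397 without Adjacent replicate 1, 2266 without IL1RN replicate 2, 2172, 2158 and 2284 without replicate 2 of Pools 1, 2 and 3), with the minimum of 6 kept among the 9 left. The libraries were not treated as paired by replicate number: the correlation of replicate differences between constructs was −0.0269 to 0.0975 over pools for RNAPII and −0.086 (Adjacent) to 0.449 (IL1RN) for H3K27ac, where Pool 2 had 0.174. In 4 of the 5 H3K27ac pools, replicate 1 carries the identifier and replicate 2 none with both constructs, so there the replicate number and the batch cannot be told apart. The difference in log10 peak number was 0.12 in the batch with the identifier and 0.408 to 0.539 without each library.

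RNAPII calls over all intervals, 632, moved to 206 with the replicate block, 206 with no filter and 393 at −log10 q of at least 20. The 45 sites called higher with VP16 moved to 9, 9 and 8 in these settings, and to 79 without the 3 VP16 RNAPII libraries that carry no identifier (added after the data were seen). Leaving out 1 library gave 634 to 2392 calls, 45 to 99 sites higher with VP16 and 0 to 3 higher with p300. Among p300 libraries, the VP16 count was 93 without IL1RN replicate 1, 90 without Pool 1 replicate 2, 86 and 84 without replicates 1 and 2 of Pool 2 and 99 without Pool 3 replicate 1; among VP16 libraries, 81 and 91 without replicates 1 and 2 of Pool 2 and 87 without Pool 3 replicate 2. The titles of the dCas9-p300(core) RNAPII libraries IL1RN replicate 1 and Pool 3 replicate 1 hold the word backup, which the sources used here do not explain. The exact test takes few distinct p-values, so counts move in steps. A test stratified by batch was not possible, because no RNAPII batch holds both constructs. Read depth is unknown, so a missing peak may be a peak below threshold.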
